A study of Rattus norvegicus with 18 samples.

Results

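A set of 8 genes of rat skeletal muscle, given in the count tables by Ensembl identifier alone, was followed through 18 gastrocnemius libraries. They were chosen by their difference of more than 1.9-fold between rats bred for a high and rats bred for a low response to exercise training. They are 8 of the 32882 genes listed, and all 8 were among the 13478 genes with enough counts to be tested in the responder lines. ENSRNOG00000008199 and ENSRNOG00000058611 had enough counts only through the line in which they were higher. ENSRNOG00000008199, ENSRNOG00000038999, ENSRNOG00000060704 and ENSRNOG00000009263 were higher in the high responders. ENSRNOG00000032378, ENSRNOG00000058611, ENSRNOG00000020669 and ENSRNOG00000005193 were lower in the high responders. The identifiers are not paired with names by the files or by the RefSeq gene table used here, in which 0 of the 32882 identifiers were found. Roles, genome positions and sequences of the 8 genes, and marker genes to check the labelled tissue, are therefore not given.

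The gastrocnemius is the large calf muscle used in running, and each of the 6 groups held 3 males. HCR and LCR rats belong to generation 33 of lines selected from genetically heterogeneous N:NIH stock for high and low intrinsic running capacity, and neither group was trained. HRT and LRT rats belong to generation 15 of lines selected from the same kind of stock for a strong and a weak response to training, and these rats were not trained. HRTT and LRTT rats are the same high and low responder lines after 8 weeks of treadmill training. All 4 responder groups were first tested for running capacity at 10 to 12 weeks of age and again at the end of the training period, and their muscle was taken 48 h after the last test. HCR and LCR muscle came from an archive of frozen samples. A rat line bred this way drifts as well as responds to selection, and rats of a line are relatives, so a difference between a pair of lines describes those lines.

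Running capacity has an intrinsic component, present without training, and an acquired component, the gain that training brings. Both are heritable, and selective breeding for one or for the other gives rat lines in which muscle can be compared at rest and after training. In muscle, endurance training is known to raise mitochondrial content and capillary supply and to alter the use of fat and glucose as fuels. The HCR and LCR rats and their count table took no part in the choice of the 8 genes, and the effect of training is a separate contrast from the line difference.

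Libraries of the responder lines held 25084058 to 41446415 counted reads and those of HCR and LCR 31869042 to 42172690. Levels are given as CPM, a gene's reads relative to the library total after correction for library composition within each of the 2 count tables, so that a level set beside one from the other table was scaled separately. Reads were counted without regard to strand and for every gene they overlapped, so genes that overlap, lie antisense to each other or are near-identical copies can share counts, and each of the 8 values is uncertain to that extent. No gene lengths were used, so levels are compared for 1 gene at a time. The column headings carry a number whose meaning the sources do not explain. It was 2 in every HRT and LRTT library and 3 in every HRTT library, while the LRT libraries carried 3, 1 and 1, the HCR libraries 1, 1 and 3 and the LCR libraries 3, 1 and 1. In bulk muscle, fewer cells of a type and less RNA per cell cannot be told apart.

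Between the lines, 214 of the 13478 genes (1.59%) differed by more than 1.9-fold, 54 higher (0.401%) and 160 lower (1.19%) in the high responders. Between the 6 high and the 6 low responder libraries 121 genes (0.898%) showed no overlap, and 19 genes (0.141%) met both conditions. Of those 19 genes 7 are among the 8 described here. The exception is ENSRNOG00000032378. These line differences chose the genes and are given as a description, without a test. By size of the fold the 8 genes ranked from 5 to 192 of all genes tested. At the 1.9-fold limit itself, the genes just inside were ENSRNOG00000020151 (1.91-fold) and ENSRNOG00000000172 (1.901-fold), and those just outside were ENSRNOG00000003959 and ENSRNOG00000057991 (both 1.89-fold). None of those 4 is among the 8.

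**Figure D1:**
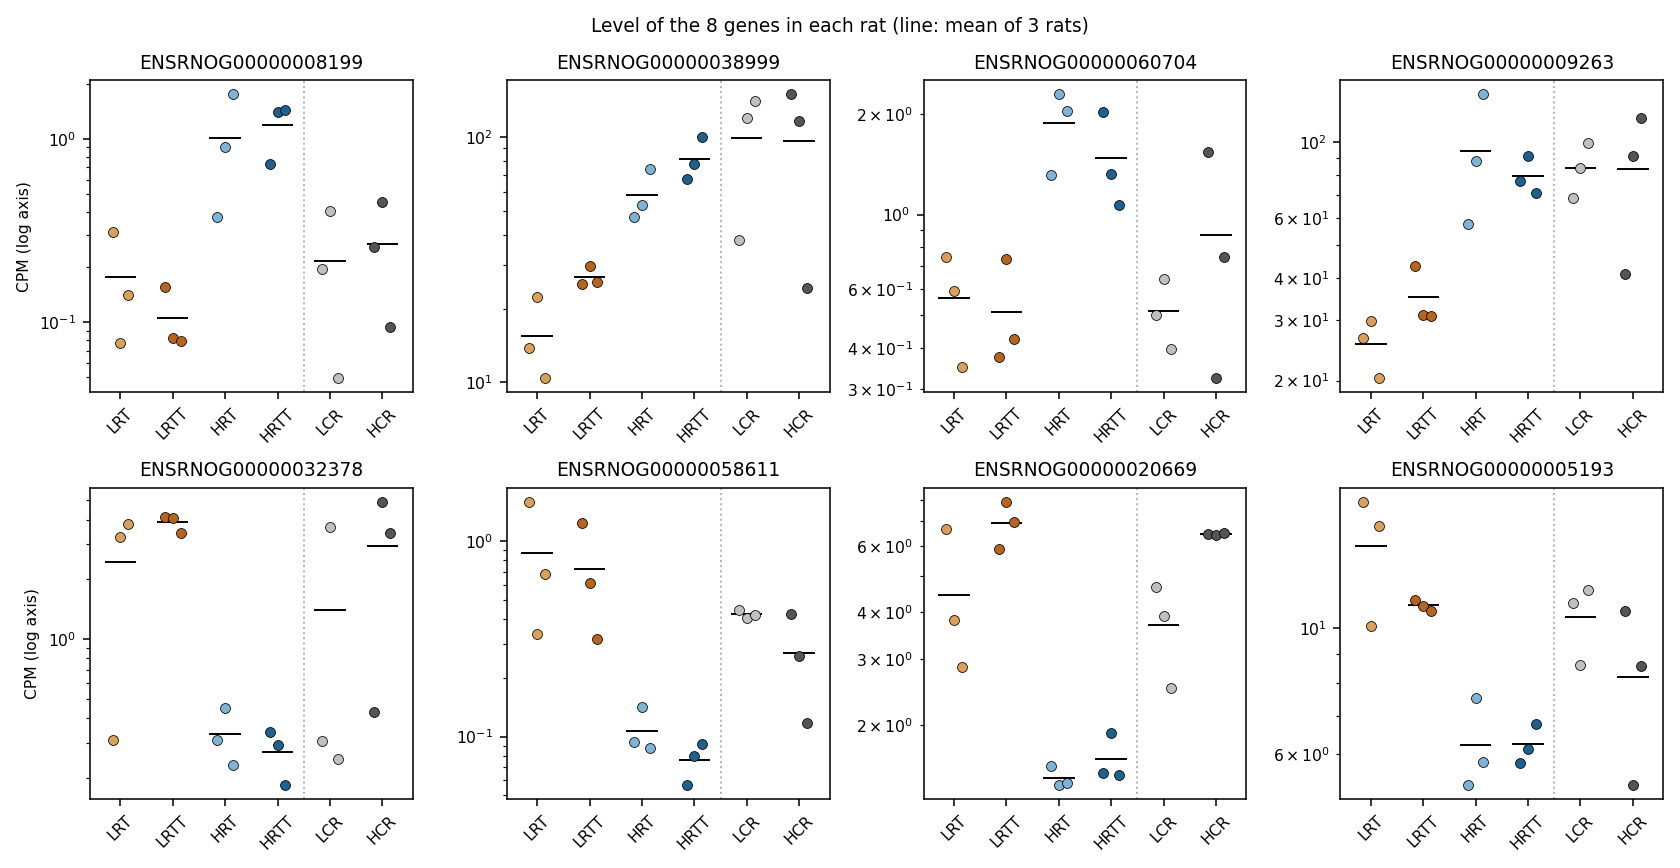
Level of each of the 8 genes in every rat, in CPM on a log axis, by group; points are rats and lines are means of 3 rats. A dotted line divides the responder groups from LCR and HCR, whose table was scaled separately. In the upper panels all HRT and HRTT points lie above all LRT and LRTT points, and in the lower panels they lie below, except for 1 LRT rat of ENSRNOG00000032378.

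ENSRNOG00000008199 had the largest excess in the high responders. Its level was 0.374, 0.903 and 1.75 CPM in the 3 HRT rats and 0.733, 1.40 and 1.44 CPM in the 3 HRTT rats. In LRT rats it was 0.309, 0.0772 and 0.140 CPM, and in LRTT rats 0.156, 0.0817 and 0.0794 CPM. The 2 lines did not overlap, although the lowest HRT rat (0.374 CPM, 12 reads) lay close to the highest LRT rat (0.309 CPM, also 12 reads). The fitted fold was 7.87 and the gene ranked 9. The low responder side held 31 reads in 6 libraries against 230 on the high responder side. The ratio of these depth-adjusted counts was 7.67 with a 95% counting interval of 5.26 to 11.6, which covers counting error only. HRTT rats averaged 1.19 ± 0.397 CPM (SD, n = 3) and LRTT rats 0.106 ± 0.0437 CPM (SD, n = 3).

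ENSRNOG00000038999 was an abundant member of the set, with 447 to 5674 reads in each of the 18 libraries. HRT rats had 47.5, 52.8 and 74.1 CPM and HRTT rats 67.3, 77.9 and 99.9 CPM. LRT rats had 13.8, 22.3 and 10.4 CPM and LRTT rats 25.1, 29.9 and 25.7 CPM. Every high responder was above every low responder, and in both lines the mean of the trained rats was the higher one. The fold between the lines was 3.38.

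ENSRNOG00000060704 was a low-count gene, with 12 to 81 reads per responder library. It stood at 1.31, 2.29 and 2.04 CPM in HRT rats and at 2.03, 1.32 and 1.07 CPM in HRTT rats. LRT rats held 0.746, 0.592 and 0.351 CPM and LRTT rats 0.375, 0.736 and 0.423 CPM. The lines were apart in all 12 rats, and the fold was 3.13. Trained and untrained rats of a line overlapped.

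ENSRNOG00000009263 differed 2.89-fold. HRT rats had 57.3, 88.1 and 137.8 CPM and HRTT rats 76.8, 91.2 and 71.1 CPM, all above the low responders. LRT rats had 26.7, 29.9 and 20.4 CPM and LRTT rats 43.4, 31.1 and 30.8 CPM. HRT rats were the most scattered group, with an SD of 40.6 CPM around a mean of 94.4 CPM, against an SD of 10.4 CPM around 79.7 CPM in HRTT rats. Over the 12 libraries this gene was the one that ENSRNOG00000038999 resembled most among all genes tested, with a mean absolute difference of 0.356 between their centred log2 CPM values.

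ENSRNOG00000032378 had a line difference of 10.1-fold over all 12 rats, the largest of the 8 in that fit, and was also the gene whose lines overlapped. In untrained rats alone ENSRNOG00000058611 had the larger difference (−2.97 against −2.87 on the log2 scale), and with the heading number as a term 3 of the other genes did. Read counts were 10, 16 and 8 in HRT rats and 12, 11 and 6 in HRTT rats. LRTT rats had 132, 100 and 129 reads. LRT rats had 12, 127 and 162 reads, so that LRT replicate 1 lay at the level of the high responders and the remaining 5 low responders far above it. In CPM the 6 high responders lay between 0.184 and 0.452, LRT replicate 1 at 0.309, and the other 5 low responders between 3.27 and 4.12. The value between the lines was −3.34 on the log2 scale with LRT replicate 1 and −3.60 without it.

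No library of either table had an intermediate level of ENSRNOG00000032378. Across all 18 libraries, 10 held 6 to 16 reads and 8 held 100 to 162 reads. The gap between the highest of the lower 10 (0.452 CPM) and the lowest of the upper 8 (3.27 CPM) was 7.24-fold. The upper level held 3 of 3 LRTT, 2 of 3 LRT, 2 of 3 HCR and 1 of 3 LCR rats, and 0 of 6 high responders. Rats of LRT, HCR and LCR were thus divided between the levels within a group. For the other 7 genes the widest gap between neighbouring libraries was from 1.29-fold (ENSRNOG00000005193) to 1.84-fold (ENSRNOG00000058611). Of 12934 genes compared for gaps with at least 3 libraries on each side, 14 had a wider gap than ENSRNOG00000032378. Of the 18 libraries 12 are those whose line difference chose the gene, so the gap is a description.

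**Figure D2:**
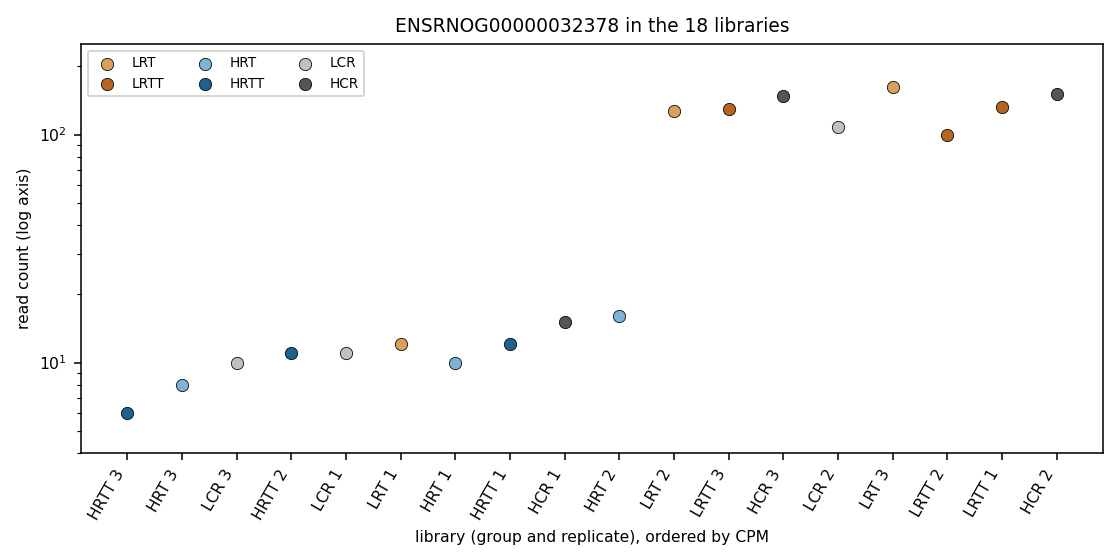
Read count of ENSRNOG00000032378 on a log axis in the 18 libraries, ordered by CPM and coloured by group. The first 10 libraries hold 6 to 16 reads and the last 8 hold 100 to 162, with no library between them.

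ENSRNOG00000058611 was 8.48-fold lower in the high responders and was scarcely detected there. HRT rats had 3, 5 and 3 reads and HRTT rats 2, 3 and 3 reads, or 0.0564 to 0.141 CPM. LRT rats had 62, 13 and 29 reads (1.596, 0.334 and 0.678 CPM) and LRTT rats 40, 15 and 12 reads (1.25, 0.613 and 0.317 CPM). The lines did not overlap, and the low responders themselves ranged widely, from 0.317 to 1.596 CPM. The counts summed to 171 in the low and 19 in the high responders, a depth-adjusted ratio of 8.70 with a 95% counting interval of 5.41 to 14.8.

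ENSRNOG00000020669 was 3.61-fold lower in the high responders. The 6 high responders lay in a narrow band, at 1.56, 1.38 and 1.40 CPM in HRT and 1.49, 1.91 and 1.47 CPM in HRTT rats. LRT rats had 6.67, 3.81 and 2.85 CPM and LRTT rats 5.90, 7.89 and 6.96 CPM. All low responders were above all high responders, with means of 4.44 ± 1.99 CPM in LRT, 6.92 ± 0.993 CPM in LRTT, 1.45 ± 0.0974 CPM in HRT and 1.62 ± 0.246 CPM in HRTT rats (SD, n = 3 each).

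ENSRNOG00000005193 had the smallest difference of the set, 1.98-fold lower in the high responders. HRT rats had 5.30, 7.53 and 5.83 CPM and HRTT rats 5.81, 6.14 and 6.79 CPM. LRT rats had 16.7, 10.1 and 15.1 CPM, and LRTT rats lay close together at 11.2, 10.95 and 10.7 CPM. The lines did not overlap. In trained rats alone the fold was 1.75, below the 1.9-fold of the choice, and in untrained rats alone it was 2.24.

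The line difference had the same sign for each gene when untrained and trained rats were taken apart. HRT and LRT rats did not overlap in 7 of the 8 genes (16.2% of all genes tested), and HRTT and LRTT rats in 8 of 8 (10.9%). The same libraries chose the members, which favours such signs and separations, so the counts are a description. The 1.9-fold limit alone does not give separation. Of the 214 genes over that limit, 19 had no overlap between the 6 high and the 6 low responder libraries. ENSRNOG00000009263 went from a log2 difference of 1.88 in untrained to 1.18 in trained rats, and ENSRNOG00000020669 from −1.62 to −2.09. For ENSRNOG00000008199 the values were 2.51 and 3.45, and for ENSRNOG00000032378 −2.87 and −3.81. The remaining 4 genes moved less than ENSRNOG00000020669 between the comparisons.

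Comparisons within a heading number gave the same signs. They use libraries whose line difference chose the genes, which favours this, so they are a description. Between HRT and LRTT rats, all with number 2, the log2 difference ran from 1.09 to 2.51 in the genes higher in high responders and from −0.83 to −3.37 in the others. These groups differ in training as well as in line. Number 3 was shared by the 3 HRTT rats and by LRT replicate 1 alone. There the difference of ENSRNOG00000032378 was −0.19, since that rat had the low level, whereas the other 7 genes differed by 0.88 to 2.54 or by −1.41 to −3.65.

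**Figure D3:**
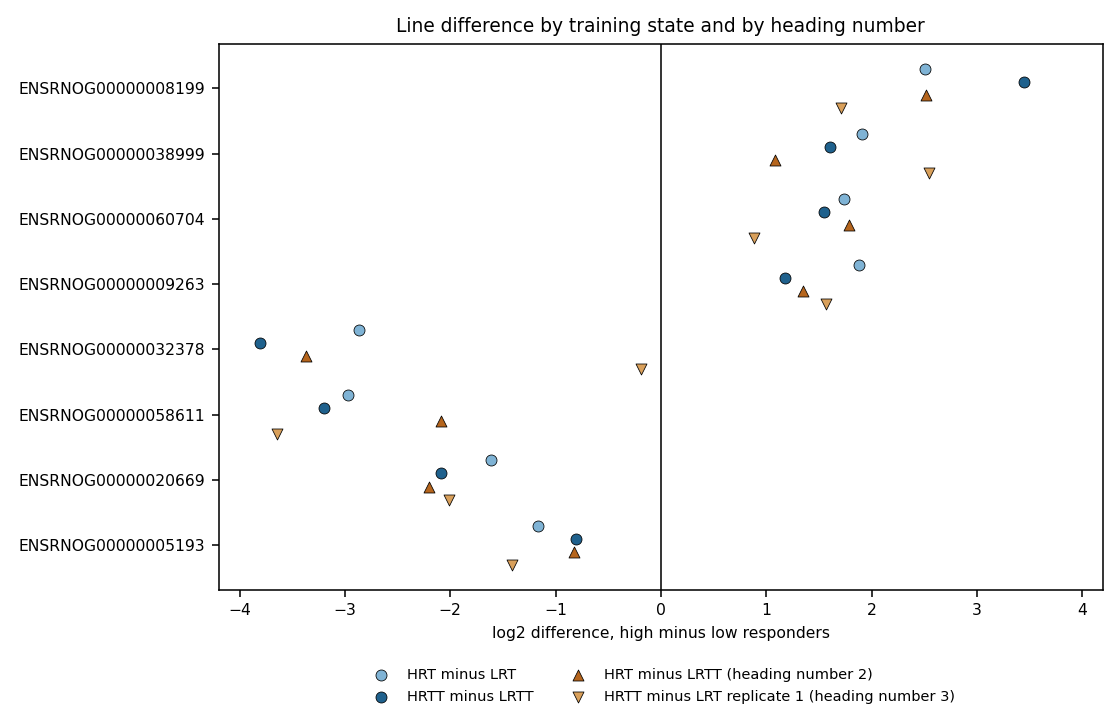
Log2 difference between high and low responders for each gene, taken in untrained rats (HRT minus LRT), in trained rats (HRTT minus LRTT), and between the libraries that share a heading number. The points of a gene lie on the same side of 0 in all 4 comparisons, and ENSRNOG00000032378 comes closest to 0, at −0.19 against the single LRT rat with number 3. All 4 comparisons use libraries whose line difference chose the genes.

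HCR and LCR rats address whether the lines bred for intrinsic capacity differ in these genes in the same direction. None of the 8 genes was called different between HCR and LCR, and 4 of the 8 had means on the same side as in the responder lines. The filter on low counts was passed by 7 of the 8. ENSRNOG00000008199, with 2 to 14 reads per library, did not. By the quasi-likelihood test of edgeR, adjusted over 13138 genes by the Benjamini-Hochberg method, 0 of 7 reached an adjusted p under 0.05 with a fold above 1.5, against 4 of all genes (0.0304%). At an unadjusted p under 0.05 there was 1 of 7, against 6.55% of all genes, and by DESeq2 0 of 7 were called, against 78 of all genes (0.594%). The signs matched those of the responder lines in 3 of the 7, against 47.1% of the 13020 genes tested in both tables. Leaving out 1 library at a time gave 3 to 5 matching genes, with 5 of 8 without HCR replicate 1, HCR replicate 3 or LCR replicate 3, where ENSRNOG00000008199 passed the filter as well.

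ENSRNOG00000020669 was the 1 gene of the 8 whose HCR and LCR rats did not overlap, and its direction was opposite to that of the responder lines. HCR rats had 6.46, 6.44 and 6.51 CPM, an SD of 0.0352 CPM around 6.47 CPM. LCR rats had 4.67, 3.92 and 2.51 CPM. HCR was higher by 0.81 ± 0.25 on the log2 scale (SE, n = 3 per group, edgeR unadjusted p = 0.0114, adjusted p = 0.630), which did not pass the adjustment. No overlap of HCR and LCR occurred in 12.3% of all genes, and in 6.2% with HCR the higher. The difference between the 2 contrasts was not itself tested. The 3 HCR rats fell within the low responder range of 2.85 to 7.89 CPM. LCR replicate 3 fell between the 2 responder ranges and the other 2 LCR rats within the low responder range.

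ENSRNOG00000060704 and ENSRNOG00000008199 had HCR means above LCR means, as the high responders were above the low, with overlap in both genes. For ENSRNOG00000060704 the HCR rats had 1.54, 0.325 and 0.749 CPM and the LCR rats 0.500, 0.642 and 0.397 CPM. The log2 difference was 0.77 ± 0.55 (SE, edgeR adjusted p = 0.861) and was 0.092 without HCR replicate 1 and 1.15 without HCR replicate 2 (edgeR unadjusted p = 0.0413, adjusted p = 0.945). All 3 LCR rats lay within the low responder range of 0.351 to 0.746 CPM, and 1 of the 3 HCR rats lay within the high responder range. For ENSRNOG00000008199 the HCR rats had 9, 14 and 4 reads (0.256, 0.455 and 0.0936 CPM) and the LCR rats 7, 12 and 2 reads (0.195, 0.406 and 0.0497 CPM). In each group 1 rat lay within the high responder range of 0.374 to 1.75 CPM, above the lowest HRT rat, and all 6 rats were below the lowest HRTT rat, at 0.733 CPM.

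ENSRNOG00000009263 and ENSRNOG00000038999 were near equal in HCR and LCR means. ENSRNOG00000009263 stood at 41.1, 90.98 and 117.3 CPM in HCR rats and 68.7, 83.7 and 99.1 CPM in LCR rats, a log2 difference of −0.01 ± 0.35 (SE, edgeR adjusted p = 0.999). Of these 6 rats 5 lay in the high responder range of 57.3 to 137.8 CPM, including all 3 LCR rats. ENSRNOG00000038999 stood at 149.5, 116.7 and 24.3 CPM in HCR rats and 37.9, 119.8 and 141.0 CPM in LCR rats, a log2 difference of −0.04 ± 0.72 (SE, edgeR adjusted p = 0.997). In each group 2 rats were above every responder rat and 1 was far lower. The lower rat was in both groups the one whose library carried heading number 3, and the other 4 libraries carried number 1. The part of the heading number in this was not tested. The within-group SD of its log2 CPM was 1.24 in this table, higher than in 98.3% of genes, and 0.360 in the responder table, higher than in 72.1%.

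ENSRNOG00000058611 and ENSRNOG00000005193 had lower means in HCR than in LCR, the side of the responder difference, without passing the test. ENSRNOG00000058611 had 15, 8 and 5 reads in HCR rats (0.427, 0.260 and 0.117 CPM) and 16, 12 and 17 reads in LCR rats (0.445, 0.406 and 0.422 CPM). The log2 difference was −0.68 ± 0.50 (SE, edgeR adjusted p = 0.867), and the highest HCR rat overlapped the LCR rats, which lay close together. It was −1.21 without HCR replicate 1 and −0.30 without HCR replicate 3. ENSRNOG00000005193 had 10.7, 5.30 and 8.59 CPM in HCR rats and 11.1, 8.62 and 11.7 CPM in LCR rats, a log2 difference of −0.35 ± 0.27 (SE, edgeR adjusted p = 0.867). This was −0.60 without HCR replicate 1 and −0.12 without HCR replicate 2. ENSRNOG00000032378, divided within each group, had 15, 151 and 147 reads in HCR rats and 11, 108 and 10 reads in LCR rats. Its log2 difference of 1.09 ± 1.21 (SE, edgeR adjusted p = 0.923) fell to 0.51 without HCR replicate 2 and became 3.37 without LCR replicate 2, the single LCR rat at the upper level (adjusted p not under 0.722 in any fit with 1 library left out).

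More than 1.5-fold apart in the HCR and LCR fit were 4 of the 7 genes tested, against 11.6% of all genes. These were ENSRNOG00000032378, ENSRNOG00000020669, ENSRNOG00000060704 and ENSRNOG00000058611, of which 2 had the sign of the responder difference. With 1 library left out, ENSRNOG00000020669 remained over 1.5-fold in all 6 fits, and each of the other 3 was under it in at least 1. The median absolute log2 difference was 0.68 over the 7 genes and 0.18 over all genes tested. The 7 genes also varied more within HCR and LCR than most, with a within-group SD above that of 57.7% (ENSRNOG00000020669) to 99.5% (ENSRNOG00000032378) of genes.

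**Figure D4:**
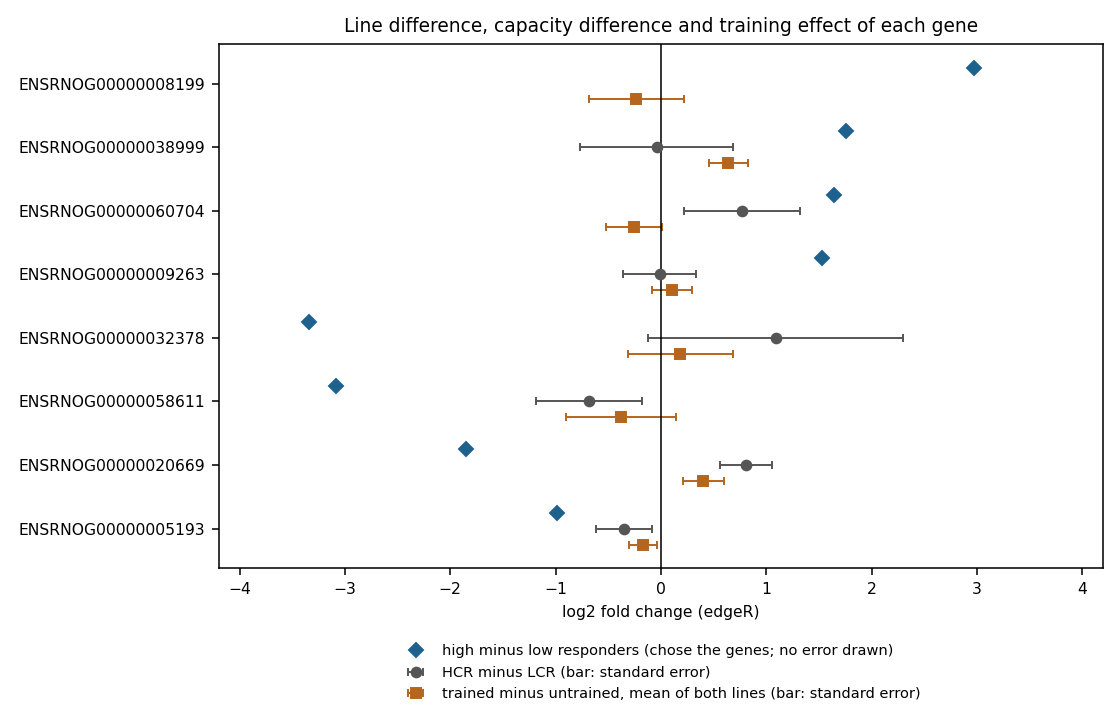
Log2 fold change of each gene between high and low responders (diamonds, the values that chose the genes, drawn without error), between HCR and LCR (circles) and between trained and untrained rats averaged over both lines (squares), with bars of 1 standard error. Circles lie on the side of the diamonds in 3 of 7 genes, and ENSRNOG00000008199 has no circle because it was not tested there. Squares lie between −0.38 and 0.64.

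Training moved none of the 8 genes past the test. Averaged over both lines, 0 of 8 were called by edgeR's quasi-likelihood test, 1 of 8 reached an unadjusted p under 0.05, and DESeq2 called 0 of 8. Of all 13478 genes, edgeR called 0 (0%), 3.24% reached an unadjusted p under 0.05 by edgeR, and DESeq2 called 5 (0.0371%). The 1 gene was ENSRNOG00000038999, at 0.64 ± 0.18 on the log2 scale (SE, unadjusted p = 0.00462, adjusted p = 1.00), and it was also the 1 gene of the 8 over 1.5-fold (3.73% of all genes). With 1 library left out its value lay between 0.53 and 0.82, under 1.5-fold without HRT replicate 1 (0.57), HRTT replicate 3 (0.56) or LRT replicate 3 (0.53). Its unadjusted p stayed under 0.05 in all 12 of these fits, and DESeq2 gave it an adjusted p of 0.303. LRTT rats (25.1 to 29.9 CPM) were above LRT rats (10.4 to 22.3 CPM) without overlap, while the lowest HRTT rat (67.3 CPM) was below the highest HRT rat (74.1 CPM). HRTT and HRT rats are separate animals. Over all genes, those of the same replicate number correlated in their deviations (r = 0.475, 0.260 and 0.383). HRTT and LRTT rats did so in part (r = 0.431, 0.0145 and 0.284). Within each of the 3 replicate numbers the HRTT rat was higher than the HRT rat for this gene. HRTT libraries carried heading number 3 and HRT libraries number 2, so training and heading number cannot be told apart there.

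ENSRNOG00000009263 showed no overlap between LRTT (30.8 to 43.4 CPM) and LRT rats (20.4 to 29.9 CPM) either, LRTT being higher. Those 2 of 8 genes compare with 9.82% of all genes for LRTT against LRT, 4.96% with LRTT higher. Between HRTT and HRT rats 0 of 8 genes were free of overlap, against 8.39% of all genes. Averaged over both lines ENSRNOG00000009263 had a training value of 0.10 ± 0.19 (SE, edgeR adjusted p = 1.00). ENSRNOG00000020669 had 0.40 ± 0.19 (SE, unadjusted p = 0.0596, adjusted p = 1.00 by edgeR), and 0.61 without LRT replicate 1 (unadjusted p = 0.00131, adjusted p = 1.00). The values of the other 5 genes lay between −0.38 (ENSRNOG00000058611) and 0.18 (ENSRNOG00000032378). ENSRNOG00000058611 had 2 to 5 reads per high responder library and ENSRNOG00000008199 had 2 to 12 per low responder library. Their training and interaction values thus rest on counts near the floor in 1 line. With at least 10 counts required in every library, 5 genes remained and 0 of them were called for training. In a fit with additive terms for line, training and heading number, the training value of ENSRNOG00000032378 became 1.67 (edgeR adjusted p = 0.126) and its line value −1.85. With additive terms for line and training alone these values were 0.32 and −3.34. The same change of terms, from line and training alone to the heading number as well, took the training value from 0.42 to 0.11 in ENSRNOG00000020669, from −0.32 to −0.81 in ENSRNOG00000058611 and from −0.051 to −0.64 in ENSRNOG00000008199 (edgeR adjusted p = 1.00 for each of the 3 with the number). The training value also went from −0.27 to −0.46 in ENSRNOG00000060704 and from −0.18 to −0.30 in ENSRNOG00000005193. Heading number and group overlap so far that LRT replicate 1 is the only low responder sharing a number with the HRTT rats. Within neither line did a trained rat share a heading number with an untrained rat. Within a line, training and heading number therefore cannot be told apart.

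Whether the response to training differed between the lines was tested as an interaction. By edgeR 0 of 8 genes were called and 0 of 8 had an unadjusted p under 0.05. DESeq2 also called 0 of 8, against 3 of all genes (0.0223%). Over all genes 0 (0%) were called by edgeR and 3.72% had an unadjusted p under 0.05. The interaction, as the training effect in high minus that in low responders, lay between −0.94 ± 0.99 (SE, ENSRNOG00000032378) and 0.94 ± 0.92 (SE, ENSRNOG00000008199) on the log2 scale. These 2 genes and ENSRNOG00000009263, at −0.70 ± 0.39 (SE, adjusted p = 0.947 by edgeR), were the 3 of 8 over 1.5-fold, against 12.4% of all genes. Each of the 3 was under 1.5-fold with 1 library left out: ENSRNOG00000008199 at 0.28 and ENSRNOG00000032378 at −0.42 without LRT replicate 1, and ENSRNOG00000009263 at −0.32 without HRT replicate 3. Other fits gave larger values, and in 3 of them a gene had an unadjusted p under 0.05 by edgeR, with no adjusted p under 0.05. ENSRNOG00000009263 was −0.96 without HRT replicate 1 (unadjusted p = 0.0106, adjusted p = 0.921 by edgeR), and ENSRNOG00000005193 went from 0.35 to 0.54 without LRT replicate 2 (unadjusted p = 0.0286, adjusted p = 0.900 by edgeR). ENSRNOG00000008199 was 1.598 on the log2 scale without HRT replicate 3, and ENSRNOG00000020669 went from −0.47 to −0.89 without LRT replicate 1 (edgeR unadjusted p = 0.00989, adjusted p = 1.00).

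In order of group means, both the highest and the lowest group were responder groups in 7 of the 8 genes, which the choice by a responder line difference favours. Levels of HCR and LCR were scaled in their own table. In ENSRNOG00000038999 LCR and HCR came first. For ENSRNOG00000060704 and ENSRNOG00000008199 the order began with the HRT and HRTT groups and continued with HCR. For ENSRNOG00000058611 and ENSRNOG00000005193 it ran from LRT and LRTT through LCR and HCR to the 2 high responder groups. In these 4 genes, and in ENSRNOG00000032378, each group overlapped the next. For ENSRNOG00000009263 and ENSRNOG00000038999 the break lay between the high responder groups and LRTT, and LRTT and LRT were again apart. HCR came before that break in both genes, yet 1 HCR rat lay within the low responder range in each. For ENSRNOG00000020669 the break lay between LCR (3.70 CPM) and HRTT (1.62 CPM).

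For each gene the most similar other gene over the 12 responder libraries was found by the mean absolute difference of centred log2 CPM, which reads the line difference as well and so describes the same pattern. ENSRNOG00000060704 and ENSRNOG00000008199 had the same nearest gene, ENSRNOG00000008030, at 0.387 and 0.528. ENSRNOG00000005193 had the closest neighbour, ENSRNOG00000050834, at 0.211. The distance can grow with a gene's own mean absolute deviation, which was 0.487 for ENSRNOG00000005193 and 1.67 for ENSRNOG00000032378. The nearest gene to ENSRNOG00000009263 was ENSRNOG00000011357 at 0.320, and the nearest to ENSRNOG00000020669 was ENSRNOG00000046005 at 0.387. ENSRNOG00000058611 and ENSRNOG00000032378 had none nearer than 0.583 (ENSRNOG00000007591) and 0.619 (ENSRNOG00000032609). None of these 6 other genes was called between HCR and LCR, where their edgeR adjusted p lay between 0.740 and 0.999. Among the 8 genes themselves the closest pair was ENSRNOG00000038999 and ENSRNOG00000009263, at the 0.356 given above, and the next was ENSRNOG00000060704 and ENSRNOG00000009263 at 0.393.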

How the data were processed

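Gastrocnemius RNA of 18 male rats was sequenced as single 50 bp reads. Per the file headers, the authors deposited raw counts per Ensembl gene (release 91, Rnor_6.0) made with featureCounts 1.6.4, unstranded and counting a read for every gene it overlapped. The submitters' processing notes name TopHat2 2.1.1, whereas the alignments in the headers are named in the form that STAR writes, so the aligner behind the counts is uncertain. The counts came in 2 tables, 1 for HCR and LCR and 1 for the 4 responder groups. A further 5 deposited tables hold the authors' own comparisons by gene symbol (pooled level, fold change, p and q) and were not used.

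Each table was analysed alone in R 4.3.3 with edgeR 4.0.16: filterByExpr (minimum count 10), TMM scaling (factors 0.951 to 1.04 and 0.882 to 1.09), a term per group and the robust quasi-likelihood test, with Benjamini-Hochberg adjustment over all 13138 or 13478 genes. Calls needed a fold above 1.5 together with an adjusted p under 0.05. The study itself compared alignments with Cuffdiff, which cannot be run on counts. CPM are on TMM-scaled library sizes. For likeness, log2 CPM had a prior count of 2. The edgeR scripts were tested on simulated counts.

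Groups came from the sample labels, and rats within a group are separate animals. Replicates were not repeats of 1 library: over 18 pairs the chi-square per gene was 16.6 to 281, where sampling noise gives about 1. Numbers shared by HRTT and HRT correlated in their deviations from group means (r = 0.475, 0.260 and 0.383), whereas the LRTT and LRT numbers (−0.250, 0.0190 and 0.200) and the HCR and LCR numbers (−0.227, 0.224 and 0.222) did not all do so. For HRTT and LRTT numbers r was 0.431, 0.0145 and 0.284, and for HRT and LRT numbers −0.289, −0.211 and 0.0943.

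The 8 genes, the lists and the tests were chosen with earlier results of these data known. Genes named are the 8, the most similar gene to each, and 2 genes on each side of the 1.9-fold limit. Marker and pathway lists by symbol were not used, because 0 of 32882 identifiers were found in the RefSeq table. Alternatives were DESeq2 1.42.0, its size factors in edgeR, other filters and thresholds, a replicate block, the heading number as a term, and each library left out. After the data were seen, 2 were added: joint TMM scaling of all 18 libraries for levels set across tables, and additive line and training terms without the heading number.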

Additional observations from a re-analysis of the deposited data

Results flagged for a closer look

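ENSRNOG00000020669 had differences of opposite sign in the 2 selections, with every rat of one group on one side of every rat of the other in both. HCR minus LCR was 0.81 on the log2 scale, which did not pass the test (edgeR adjusted p = 0.630), and high minus low responders −1.85. The difference between these contrasts was not tested, and the second of them chose the gene. No overlap of HCR and LCR was found in 12.3% of all genes tested.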

How the results depend on the processing

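With 3 rats per group the tests of the 8 genes were of limited precision, and 3 of the genes had libraries with fewer than 10 reads. Among those of the 8 genes that passed each setting's filter (5 to 8), 0 were called for HCR against LCR, for training or for the interaction under the alternatives run, the replicate block included. The block changed no call on the 8 genes, and over all genes it took the HCR against LCR calls from 4 to 0. These calls over all genes numbered 17 with every gene of at least 1 count, 0 with at least 10 counts in every library, 78 by DESeq2, 7 at an adjusted p under 0.10, 0 with the heading number as a term, and 0 to 10 with 1 library left out. DESeq2 called 5 genes for training and 3 for the interaction, where edgeR called 0 (0 to 1 with 1 library left out). The number of the 8 genes over 1.9-fold between the lines was 7 to 8 under the settings run for it, which did not include DESeq2 or the other filters. The number with matching signs in both selections was 2 of 5 to 4 of 8 under the planned settings. With 1 library left out it was 3 of 7 to 5 of 8. The number of genes passing the filter changed between these fits.

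Leaving out 1 library turned the sign of 8 values, none of which passed a test: for HCR minus LCR, ENSRNOG00000009263 (−0.35 to 0.30) and ENSRNOG00000038999 (−0.51 to 0.42). For training these were ENSRNOG00000008199 (−0.44 to 0.095), ENSRNOG00000009263 (−0.033 to 0.29), ENSRNOG00000032378 (−0.076 to 0.41) and ENSRNOG00000058611 (−0.72 to 0.0077). For the interaction they were ENSRNOG00000058611 (−0.999 to 0.45) and ENSRNOG00000060704 (−0.47 to 0.14). In the fit with additive line, training and heading number terms, the line value of ENSRNOG00000032378 was −1.85 in place of −3.34, which it also was with additive line and training terms alone. The cause was not tested. Joint scaling of both tables kept 47 of 48 placements of HCR and LCR values against the responder ranges.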
